A study of Rattus norvegicus with 4 samples.

Results

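The enzymes of cholesterol and fatty acid synthesis, with the SREBP transcription factors and their regulators, were followed in rat granulosa cells, the cells of the ovarian follicle that make steroid hormones. The 34 genes were chosen by name, with earlier results of these arrays known. Every probe set annotated with 1 of these symbols as its only symbol was taken. Probe sets were found for 33 of the 34 genes (55 probe sets), out of 14217 genes named on the array. The remaining gene, Hmgcs1, was not analysed here. The cells came from female Sprague Dawley rats, 27 days old, that had received the gonadotropin PMSG for 48 h. Every culture received 10 µM forskolin, an activator of adenylyl cyclase, over 48 h in a reduced-serum medium with insulin, transferrin and selenium. They differed in the siRNA: 2 had 20 nM of an siRNA against the transcription factor Runx2, and 2 had 20 nM of a negative control siRNA. There was 1 array for each culture, numbered 1 or 2 in the sample titles.

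SREBPs are made as precursors in the membrane of the endoplasmic reticulum. Scap escorts them to the Golgi, where proteases release the active factor, while Insig proteins hold Scap back when sterols are plentiful. The active factors switch on nearly every enzyme from acetyl-CoA to cholesterol and to unsaturated fatty acids, usually together with the promoter-binding factors NF-Y and Sp1. Granulosa cells need cholesterol as the substrate of progesterone and can make it themselves or take it up from lipoproteins.

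Because these genes are known for shared promoter control, the 250 bases upstream of the annotated start were searched on both strands for 4 short motifs, using RefSeq sequences of the GRCr8 build (27 of the 34 genes matched). CCAAT, the letters bound by NF-Y, occurred in 20 of the 27, against 34.3% of 27457 promoters and 36.0% of 8442 promoters of genes tested on these arrays. By role, these were 13 of 16 sterol synthesis enzymes, 4 of 5 regulators and 3 of 6 fatty acid genes. GGGCGG, an Sp1 type of GC box, occurred in 22 of 27, against 32.4% and 60.9%. TGTGGT, a Runx type of motif, occurred in 2 of 27 (Acat2 and Insig2), against 14.1% and 10.0%. TCACNCCAC, a strict sterol regulatory element type, occurred in 0 of 27, against 0.976% and 0.924%, and its lack says only that these letters were not in this window. No match of one motif overlapped a match of another in these promoters. The stretches below are shown for the member of each role group with the lowest siRNA difference among those with CCAAT. They run from 20 bases before the first to 20 bases after the last CCAAT, or to the start site where that came first. Capitals mark the NF-Y and Sp1 motifs, read on either strand. They lie at chr12:47819504-47819696 (minus strand) for Mvk, chr13:84722755-84722950 (minus) for Hsd17b7, chr4:8057938-8057982 (minus) for Insig1 and chr3:164464610-164464654 (plus) for Acss2.
Mvk: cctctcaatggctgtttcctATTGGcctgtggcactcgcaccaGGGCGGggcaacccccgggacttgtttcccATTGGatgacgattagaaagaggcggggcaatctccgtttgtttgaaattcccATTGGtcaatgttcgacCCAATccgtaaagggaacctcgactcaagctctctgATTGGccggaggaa
Hsd17b7: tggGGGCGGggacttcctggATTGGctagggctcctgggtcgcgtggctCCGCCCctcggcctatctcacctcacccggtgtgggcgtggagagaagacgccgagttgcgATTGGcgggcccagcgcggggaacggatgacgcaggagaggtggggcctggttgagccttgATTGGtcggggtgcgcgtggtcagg
Insig1: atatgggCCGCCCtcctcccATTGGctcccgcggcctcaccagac
Acss2: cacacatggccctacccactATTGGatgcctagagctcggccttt
The 4 stretches hold 5 CCAAT matches for Mvk, 3 for Hsd17b7 and 1 each for Insig1 and Acss2, and all but 1 of these read ATTGG on the printed strand. These are matches of letters, and binding was not measured.

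The deposited values are MAS5 signals, a probe set brightness on a linear scale. Median signal per array ran from 129 to 153, and the small number of arrays limits every value. The Runx2 siRNA array numbered 2 stood apart, with a spike-in level 1.72 times the mean of the control arrays (0.924 to 1.08 on the others) and an actin 3' to 5' ratio of 1.71 against 1.42 to 1.45. No probe set was annotated as Runx2, so the knockdown was not checked, and groups are named as labelled. Of the granulosa markers, 6 of 7 were named on the array and all 6 lay above the filter on dim probe sets, as did 5 of 5 markers of luteinizing cells. Markers of other cells were partly present. All 4 stromal markers lay above the filter at 78.6 (Dcn at 185 to 611), as did 2 of 5 leukocyte markers, Lyz2 (134 to 312) and Cd68 (78.6 to 114). The leukocyte markers Ptprc and Itgam and the endothelial markers Pecam1 and Vwf had signals of at most 43.2 on every array. Both theca markers were also under it by their mean signal. Of the 5 oocyte markers only Zp2 (323 to 571) lay above the filter, and of the 4 endothelial markers only Kdr (175 to 204).

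Transcripts of lipid synthesis were lower with Runx2 siRNA than with control siRNA in 31 of 33 genes, and they were also lower on the arrays numbered 2 than on those numbered 1 in both siRNA groups. In 31 of 33 genes control array 1 had the highest and Runx2 siRNA array 2 the lowest of the 4 signals, an order found in 15.7% of all 18625 probe sets tested. This order entails lower signals both by siRNA and by number, so these counts of 31 are 1 observation. The median siRNA difference over the 33 genes was -0.45 on the log2(signal + 16) scale, which is used for every difference here, against 0.05 over all probe sets tested. The median difference between numbers was -0.53 in either siRNA group, against 0.01 over all probe sets. As the genes were chosen with earlier results of these arrays known, the values over all probe sets are a description and not a test. Each gene is given by its brightest probe set. In a whole-cell extract, fewer cells expressing a gene and less of its RNA per cell cannot be told apart.

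**Figure D1:**
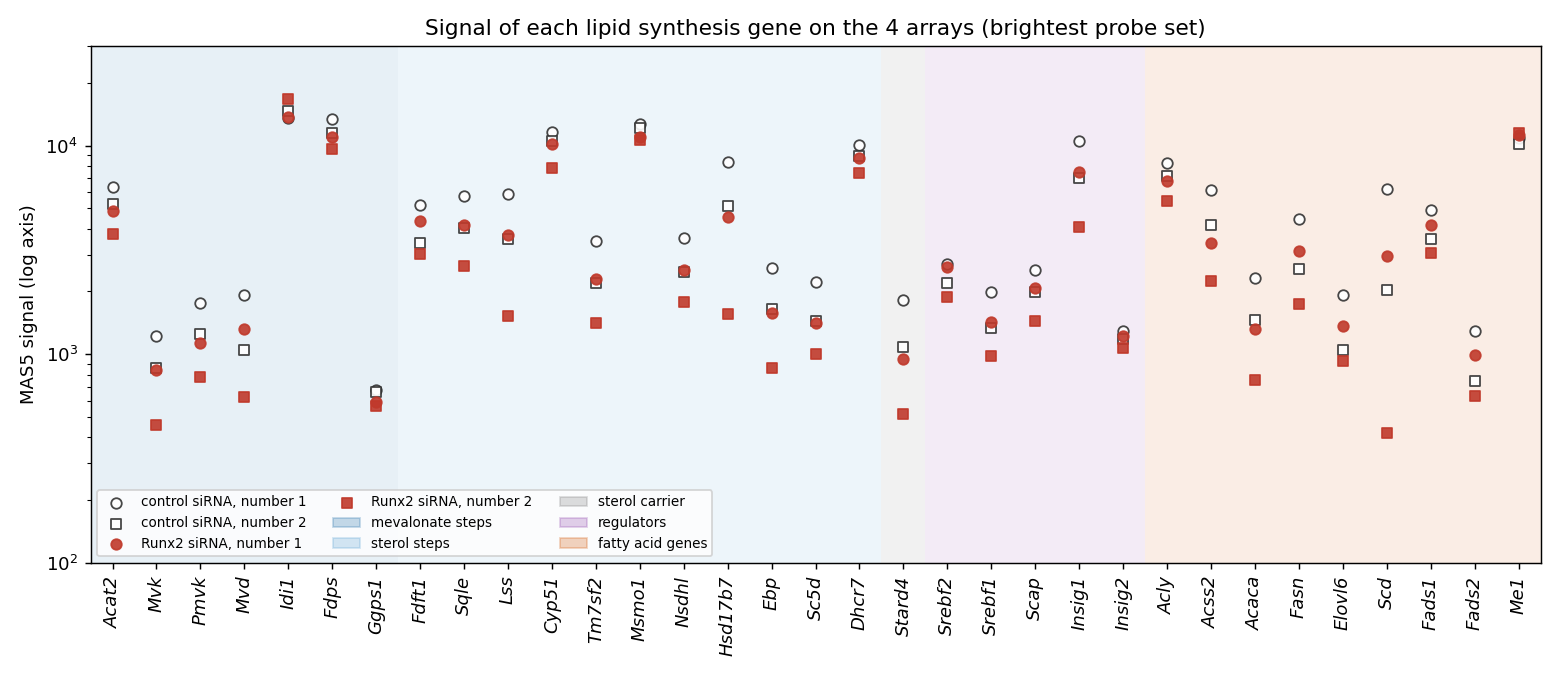
MAS5 signal (log axis) of the brightest probe set of each of the 33 genes on the 4 arrays, grouped by role (shaded bands); open symbols are control siRNA, filled symbols Runx2 siRNA, circles number 1 and squares number 2. In 31 of 33 genes the open circle is highest and the filled square lowest, and Idi1 and Me1 are the exceptions.

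By limma across all probe sets, 0 members passed at an adjusted p under 0.05, and 0% of the 18625 probe sets did. At an unadjusted p under 0.05, 5 of the 33 genes were lower, against 5.49% of probe sets, and 2225 probe sets reached it in either direction. Adjusted p over all probe sets ran from 0.369 to 0.774 for the 33 genes. The residual of this fit holds the difference between the numbers, so the standard errors of these genes are wide. Values are therefore given as measured differences. Both Runx2 siRNA arrays lay below both control arrays in 15 of 33 genes, against 18.5% of probe sets. The reverse order was found in 1 of 33, Me1, against 28.8%. Within both same-numbered pairs the Runx2 siRNA array was lower in 31 of 33 genes, against 28.3%. The stromal marker list was higher with Runx2 siRNA in each pair, with summed signals of 653 against 489 and 1239 against 929 (Runx2 siRNA against control). Dcn was its largest part (288 against 185 and 611 against 388), and Pdgfra was lower in the first pair (77.8 against 90.3). The 2 theca markers, both under the filter, summed to 164 against 73.8 and 122 against 70.4. The 6 granulosa markers also summed higher, at 52017.3 against 46215.7 and 53176.5 against 39587.5, although Cyp19a1 was lower in each pair (856 against 2249 and 470 against 1185). The 5 luteinizing markers summed to 48824 against 55573 and 52374 against 50750.5. Star, Cyp11a1, Lhcgr and Scarb1 were lower with Runx2 siRNA in each pair (Scarb1 6734 against 10287 and 4345 against 8153). Hsd3b1 was higher in each (15292 against 13264 and 26312 against 15353). The part of these lists in the lipid gene differences was not tested.

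The enzymes of the mevalonate stretch build the isoprenoid units of cholesterol, and 6 of 7 were lower with Runx2 siRNA. Acat2, the thiolase that joins acetyl-CoA units, had signals of 6358 and 5264 on control arrays 1 and 2 and 4860 and 3784 on Runx2 siRNA arrays 1 and 2. The groups did not overlap, and the log2 difference was -0.43 ± 0.17 (SE, n = 2 arrays per group, as for every SE below). Mevalonate kinase, Mvk, lay at 1218 and 857 with control siRNA and at 842 and 456 with Runx2 siRNA, again without overlap, although the gap between control array 2 and Runx2 siRNA array 1 was narrow. Its difference was -0.71 ± 0.32, and -0.64 ± 0.34 for its second tested probe set. The dimmest Mvk probe set had signals of 1.82 to 3.41 and was not tested. Pmvk, the next kinase, lay at 1765 and 1246 against 1131 and 782, a difference of -0.65 ± 0.24. Mvd, the decarboxylase that follows, overlapped between the groups, with 1913 and 1047 against 1322 and 622. Its siRNA difference of -0.63 ± 0.43 was smaller than its number difference, which was -0.86 with control siRNA and -1.07 with Runx2 siRNA.

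Further along, the prenyl synthases differed less. Fdps, which makes farnesyl diphosphate, lay at 13468 and 11524 against 11020 and 9630, a difference of -0.27 ± 0.14 without overlap. Ggps1 draws farnesyl diphosphate towards protein prenylation and away from sterols. It lay at 673 and 662 against 592 and 568, a difference of -0.20 ± 0.11, and it was among the genes with the smallest number difference (-0.04 over both groups). Its dimmer probe sets gave -0.27 ± 0.21 and -0.14 ± 0.19 and overlapped. Idi1, the isomerase of the isoprenoid unit, gave opposite results on its probe sets. The brighter one lay at 13502 and 14562 with control siRNA and at 13686 and 16649 with Runx2 siRNA, overlapping, with a difference of 0.11 ± 0.15 that became -0.10 after quantile scaling. The dimmer one lay at 9661 and 9436 against 6616 and 5688, a difference of -0.64 ± 0.12 (unadjusted p = 0.00281, adjusted p = 0.324 by limma). That is a separation without overlap and with little spread inside the control group.

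All 11 enzymes from squalene to cholesterol were lower with Runx2 siRNA, against 41.9% of probe sets, and 6 of them did not overlap, against 18.5%. Hsd17b7, a ketosteroid reductase of sterol synthesis that can also act on estrone, differed most. Its signals were 8333 and 5146 with control siRNA and 4565 and 1563 with Runx2 siRNA, or 45.5% of the control mean. The difference was -1.29 ± 0.53, and -1.26 ± 0.43 for a dimmer probe set of the same arrays. Leaving out 1 array moved the first of these to -0.52 (Runx2 siRNA array 2), -0.94 (control array 1), -1.63 (control array 2) or -2.06 (Runx2 siRNA array 1). Lss, which closes squalene epoxide into lanosterol, lay at 5878 and 3560 against 3724 and 1533. These groups just overlapped, at a difference of -0.93 ± 0.46, and a dimmer probe set gave -1.16 ± 0.47 without overlap. Ebp, a sterol isomerase, lay at 2589 and 1657 against 1583 and 864, with no overlap and a difference of -0.82 ± 0.34.

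Intermediate differences were seen for Tm7sf2, a sterol reductase (-0.61 ± 0.31), Sc5d, a sterol desaturase (-0.58 ± 0.26), and Sqle, which makes squalene epoxide (-0.53 ± 0.27). Nsdhl, a dehydrogenase of the demethylation steps, gave -0.49 ± 0.24. For Tm7sf2, Sqle and Nsdhl, control array 2 lay just under Runx2 siRNA array 1, at 2191 and 2291, 4047 and 4161, and 2485 and 2546. The groups of Sc5d did not overlap, with 2224 and 1437 against 1419 and 1003, but the dimmest Sc5d probe set gave -0.02 ± 0.28. The other enzymes had the smallest differences on their brightest probe sets. Cyp51, the lanosterol demethylase, had -0.30 ± 0.16 on its brightest probe set (11549 and 10535 against 10210 and 7822) and -0.87 ± 0.47 on the dimmer one (9019 and 5615 against 6203 and 2446). Dhcr7, the last reductase, gave -0.24 ± 0.14, Fdft1, the squalene synthase, -0.21 ± 0.26, and Msmo1, the methylsterol oxidase, -0.20 ± 0.11. Msmo1 was nearly the same on both arrays of a group, at 12679 and 12185 against 11012 and 10631, whereas Fdft1 followed the number, at 5169 and 3432 against 4374 and 3027.

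Over the 18 measured sterol synthesis enzymes the median siRNA difference was -0.51, and 17 of them were lower. The groups did not overlap in 11 of the 18, against 18.5% of probe sets. The median was -0.22 without Runx2 siRNA array 2 (which had the high spike-in level) and -0.25 without control array 1. It was -0.78 without Runx2 siRNA array 1 and -0.76 without control array 2. Leaving out an array unbalances the numbers between the groups. Measured within same-numbered pairs, the median was -0.47 for number 1 and -0.49 for number 2.

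**Figure D2:**
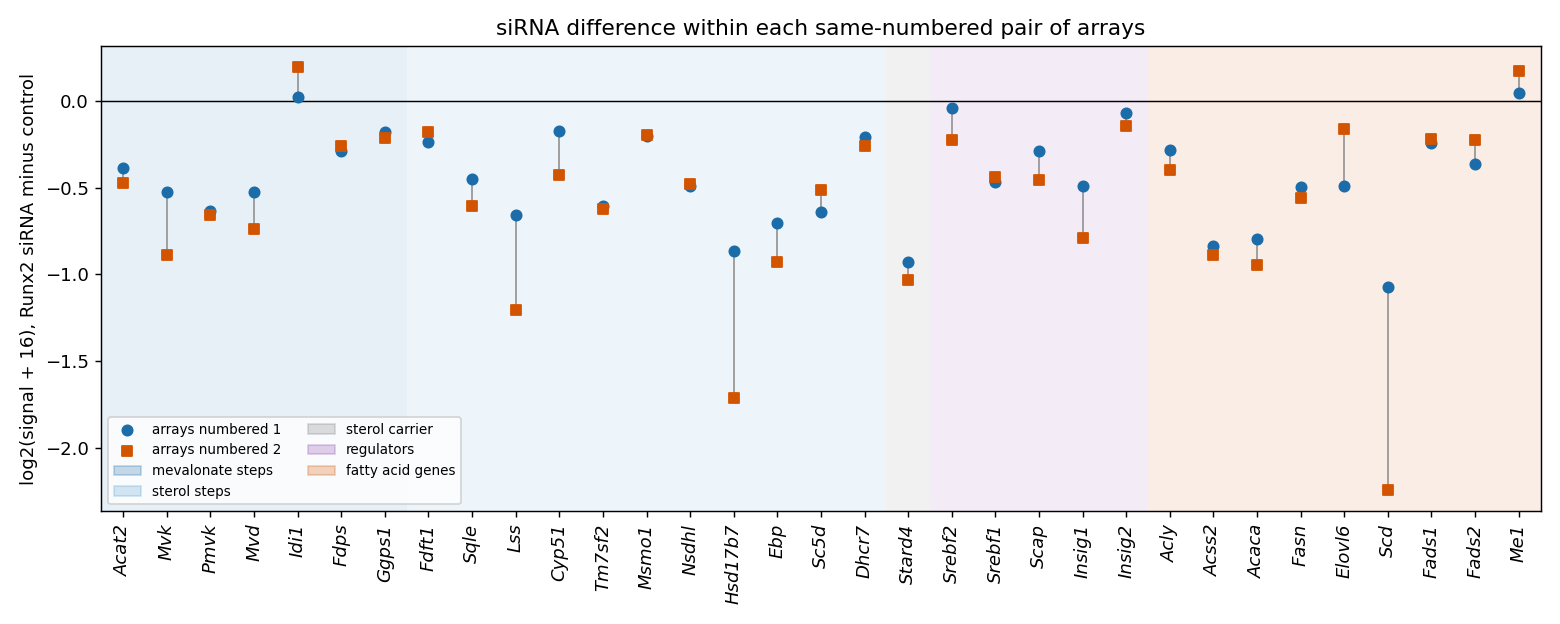
Difference in log2(signal + 16) between the Runx2 siRNA array and the control array of the same number, for number 1 (circles) and number 2 (squares), by gene and role. All genes but Idi1 and Me1 lie below 0 in both pairs, and the pairs lie farthest apart for Scd (-1.07 and -2.24) and Hsd17b7 (-0.87 and -1.71).

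Stard4, a soluble carrier that moves sterols between membranes, lay at 1816 and 1083 with control siRNA and at 947 and 521 with Runx2 siRNA. That is a difference of -0.98 ± 0.36 without overlap, alike in both pairs (-0.93 and -1.03). A second probe set gave -0.78 ± 0.31. The third and dimmest went the other way, at 118 and 140 against 187 and 220, a difference of 0.60 ± 0.19, so the probe sets of Stard4 do not give a single direction.

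The regulators of the pathway were all lower on average with Runx2 siRNA, but in none of the 5 were the groups separate, against 18.5% of probe sets, and so few genes say little about that share. Insig1 is itself a target of SREBP and holds Scap in the endoplasmic reticulum. It had the largest difference of the 5, at 10475 and 7013 against 7449 and 4055 (-0.64 ± 0.34). Control array 2 and Runx2 siRNA array 1 were close, and the number differences were -0.58 and -0.87 with control and Runx2 siRNA. Insig2, which acts in the same way but is less tied to SREBP, differed by -0.11 ± 0.12 (1289 and 1190 against 1227 and 1072). Srebf1, the factor best known for fatty acid genes, lay at 1994 and 1340 against 1436 and 984 (-0.45 ± 0.26), and a dimmer probe set differed by -0.20 ± 0.29. Srebf2, the factor best known for cholesterol genes, lay at 2700 and 2204 against 2621 and 1883 (-0.13 ± 0.19), so its number difference of -0.38 was the larger. A second Srebf2 probe set had signals of 24.5 to 38.7 and was not tested. Scap, the escort, lay at 2531 and 1988 against 2068 and 1445 (-0.37 ± 0.21), and its dimmer probe set differed by -0.42 in the first pair and 0.06 in the second. The median of the 5 was -0.37, and it was -0.12 without Runx2 siRNA array 2, -0.17 without control array 1, -0.63 without Runx2 siRNA array 1 and -0.55 without control array 2.

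Genes of fatty acid synthesis were lower with Runx2 siRNA in 8 of 9, with separate groups in 3, against 18.5% of probe sets. These 3 were Acss2, Acaca and Acly. Acss2, which makes acetyl-CoA from acetate, lay at 6113 and 4185 against 3413 and 2250, a difference of -0.86 ± 0.27 (unadjusted p = 0.0205, adjusted p = 0.369 by limma). Acaca, the carboxylase that commits acetyl-CoA to fatty acids, lay at 2311 and 1463 against 1321 and 752, a difference of -0.87 ± 0.33, with -0.53 ± 0.27 and no overlap for a dimmer probe set. Acly, which makes acetyl-CoA from citrate and so feeds both pathways, lay at 8228 and 7144 against 6741 and 5421 (-0.34 ± 0.15). In these 3 genes control array 2 stayed above Runx2 siRNA array 1.

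In the other 6 fatty acid genes control array 2 lay below Runx2 siRNA array 1. Fasn, the synthase, lay at 4433 and 2575 with control siRNA and at 3132 and 1743 with Runx2 siRNA, a siRNA difference of -0.53 ± 0.36 beside number differences of -0.78 and -0.84. Scd, the desaturase that makes oleate, had the widest range of all members on the log2 scale, with signals of 6211 and 2039 against 2949 and 419. Its siRNA difference was -1.66 ± 0.99 and its number difference -1.60 with control siRNA and -2.77 with Runx2 siRNA. Leaving out 1 array moved the siRNA difference to -0.27 (Runx2 siRNA array 2), -0.86 (control array 1), -2.46 (control array 2) or -3.04 (Runx2 siRNA array 1), and the same-numbered pairs gave -1.07 and -2.24. Elovl6, which lengthens palmitate, lay at 1919 and 1045 against 1362 and 932 (-0.33 ± 0.33), while a dimmer probe set gave -0.97 ± 0.51.

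The desaturases of polyunsaturated fatty acids, Fads1 and Fads2, differed by -0.23 ± 0.22 and -0.29 ± 0.33. Their number differences were larger, at -0.46 and -0.44 for Fads1 and -0.78 and -0.64 for Fads2 (control and Runx2 siRNA). Me1, the malic enzyme that supplies NADPH, was the exception among these genes. It lay at 10914 and 10214 with control siRNA and at 11271 and 11477 with Runx2 siRNA, a difference of 0.11 ± 0.11, and its second probe set gave 0.29 ± 0.13. The Runx2 siRNA arrays of Me1 were above both control arrays on both probe sets.

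Set side by side, the median siRNA difference was -0.51 over 18 sterol enzymes and -0.34 over 9 fatty acid genes. With the mean over a gene's probe sets in place of the brightest these became -0.54 and -0.55, so the gap between the medians rested on the choice of probe set. For the fatty acid genes the median was -0.11 without Runx2 siRNA array 2, -0.14 without control array 1, -0.61 without Runx2 siRNA array 1 and -0.76 without control array 2. The number difference, averaged over both siRNA groups, had a median of -0.54 for the sterol enzymes and -0.70 for the fatty acid genes, and of -0.58 and -0.62 with the mean over probe sets. Within the siRNA groups the sterol median was -0.50 with control siRNA and -0.52 with Runx2 siRNA, and the fatty acid median was -0.65 and -0.60. Control array 2 was below Runx2 siRNA array 1 in 6 of 18 sterol enzymes, 6 of 9 fatty acid genes (Me1, which was higher with Runx2 siRNA, among them) and 5 of 5 regulators. The share of all probe sets with control array 2 below Runx2 siRNA array 1 was not taken, so these counts have no reference beside them. Whether the sterol and fatty acid genes differ in these respects was not tested, as the lists were chosen with results of these arrays known.

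**Figure D3:**
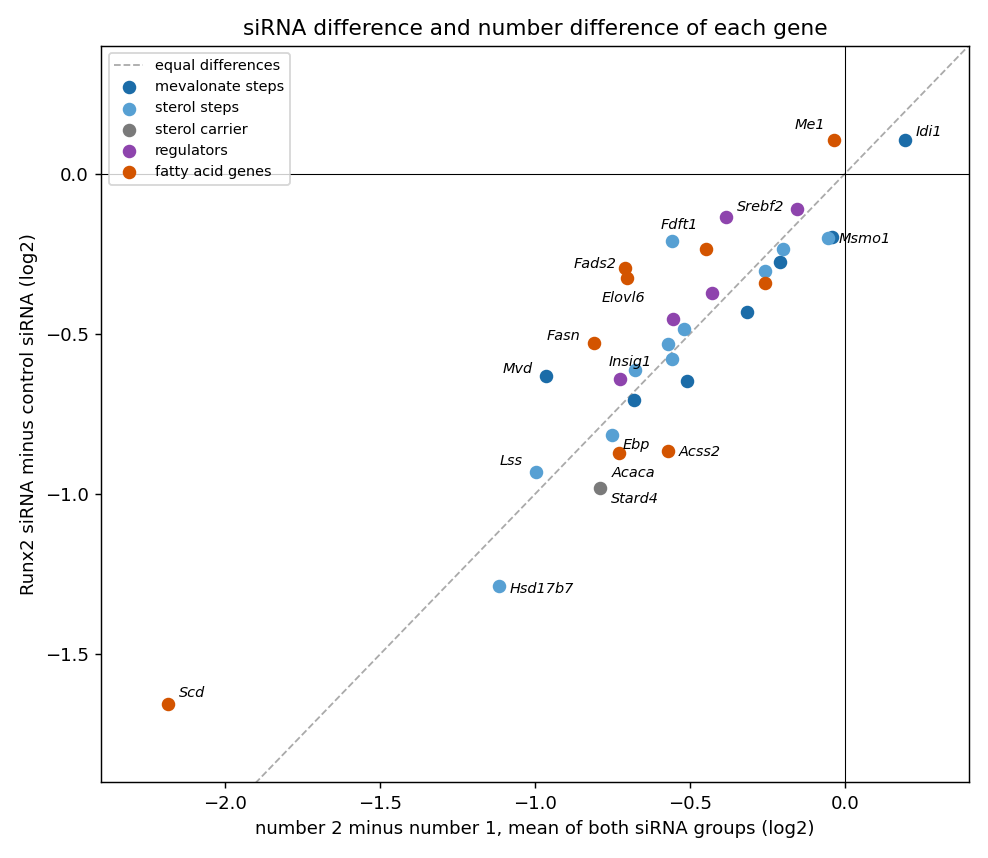
Difference between siRNA groups (vertical) against difference between numbers averaged over both groups (horizontal), both in log2(signal + 16), 1 point per gene, coloured by role; both axes come from the same 4 arrays. Where both differences are below 0, points left of the dashed line, such as Scd, Fasn, Fads2 and Mvd, differed more by number. Points right of it, such as Acss2, Stard4 and Hsd17b7, differed more by siRNA. This reading does not hold for Idi1 (0.196 by number, 0.106 by siRNA) and Me1 (-0.035 and 0.107).

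On the arrays numbered 2 every member but Idi1 and Me1 was lower in both siRNA groups (31 of 33, against 32% of probe sets), which again follows from the order given above. Markers of stroma and leukocytes summed higher there. Summed signals of the 4 stromal markers were 653 and 1239 on Runx2 siRNA arrays 1 and 2 and 489 and 929 on the control arrays. Dcn was the largest part (288 and 611, 185 and 388), and each of the 4 was higher on number 2. The 5 leukocyte markers summed to 284 and 498 and to 266 and 510, carried mainly by the lysozyme gene Lyz2 (145 and 312, 134 and 307). Under the filter, Ptprc (20.5 and 37.4, 2.32 and 23.1) and Cd74 (32.6 and 65.8, 39.0 and 63.6) were also higher on number 2. Itgam, under the filter too, was lower there (6.52 and 3.66, 8.10 and 2.62). Cd68 was higher there only with control siRNA (79.6 and 78.6, 82.5 and 114). The 5 oocyte markers summed to 584 and 893 and to 398 and 628, with Zp2 the largest part (486 and 571, 323 and 498). On the control arrays Gdf9 (42.5 and 31.7) and Bmp15 (24.9 and 11.6), both under the filter, were lower on number 2. The part of these lists in the number difference was not tested. The 5 luteinizing markers had no common direction by number. Lhcgr, the LH receptor, was lower on number 2 (5593 and 1484 with control siRNA, 4475 and 640 with Runx2 siRNA), as were Cyp11a1 and Scarb1. Star, which brings cholesterol into mitochondria, was higher there (14279 and 15538, 12682 and 13376), as was Hsd3b1 (13264 and 15353, 15292 and 26312). The arrays of a number may share a culture or another step, which the labels do not say.

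Where a gene had several tested probe sets, their differences had the same sign in 15 of 17 genes, and Idi1 and Stard4 were the exceptions. The brightest probe set had the smaller difference in 8 of the 17. The 6 genes whose brightest probe set had a mean signal over 8000, namely Idi1, Fdps, Cyp51, Msmo1, Dhcr7 and Me1, had a median siRNA difference of -0.22 and none beyond -0.30. The median was -0.53 for 15 genes between 2000 and 8000 and -0.60 for 12 genes under 2000. The number difference followed the same order, with medians of -0.13, -0.57 and -0.69. These limits were set after the values were seen, and probe brightness is not a measure of transcript number between genes. For Idi1 and Cyp51 the dimmer probe set of the same gene had the larger siRNA difference, as given above. The small differences of the 6 genes over 8000 depended on the scaling. After quantile scaling Fdps (-0.40), Cyp51 (-0.37), Msmo1 (-0.34) and Dhcr7 (-0.31) lay beyond -0.30, and Idi1 (-0.10) and Me1 (0.02) did not. The highest signal was 30500 on Runx2 siRNA array 2, against 18398 to 19702 on the other arrays.

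**Figure D4:**
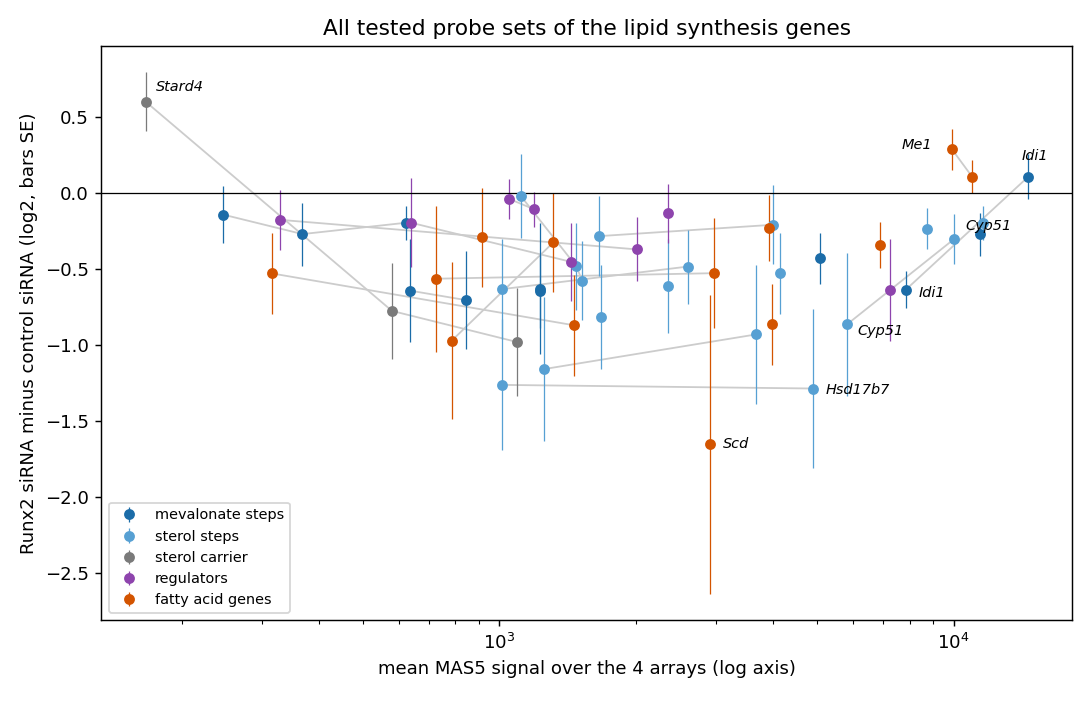
siRNA difference in log2(signal + 16) with its SE (bars, n = 2 arrays per group) of all 53 tested probe sets of the 33 genes, against mean MAS5 signal (log axis); grey lines join probe sets of a gene. The brightest probe sets of the 6 genes over a signal of 8000 lie between -0.30 and 0.11, and the second one of Me1 (0.29) and the dimmest one of Stard4 (0.60) lie above 0.

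Other genes tied to the pathway gave a mixed picture. Of 28 listed, 22 were tested, 0 passed by limma (3 were lower at an unadjusted p under 0.05, against 5.49% of probe sets). With Runx2 siRNA 20 were lower, against 41.9%, and 2 higher, with a median of -0.28. The order with control array 1 highest and Runx2 siRNA array 2 lowest held in 12 of the 22, against 15.7%. Acsl3, which activates long-chain fatty acids, lay at 4901 and 2522 against 2428 and 1180 (-1.05 ± 0.44). Aacs, which makes acetoacetyl-CoA from ketone bodies, lay at 1754 and 959 against 1144 and 352 (-1.01 ± 0.58). Elovl5, an elongase of polyunsaturated fatty acids, gave -0.71 ± 0.18, and Erg28, a scaffold of the sterol demethylation enzymes, -0.62 ± 0.28. The cholesterol exporters Abcg1 and Abca1, known as targets of the sterol-sensing LXR receptors, were lower with Runx2 siRNA on their brightest probe sets. They differed from the synthesis genes by number. Abcg1 lay at 522 and 811 with control siRNA and at 299 and 339 with Runx2 siRNA (-0.997 ± 0.231), and Abca1 at 866 and 1281 against 661 and 631 (-0.69 ± 0.20). The dimmer tested probe sets gave -0.59 ± 0.23 for Abcg1 and -0.30 ± 0.21, -0.53 ± 0.16 and -0.03 ± 0.20 for Abca1. On the control arrays both exporters were higher on number 2, where each of the 33 synthesis genes but Idi1 was lower.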

How the data were processed

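Biotin-labelled total RNA of 4 cultures was hybridised to 1-colour arrays. The deposited values are array intensity, linear MAS5 signals (MAS5 is named in the submitters' processing notes, its version is not given in the sources used here), and the authors had scaled each array to a trimmed mean of about 500.1, as the values show. Of 31099 probe sets, 57 array controls and the dimmest 40% (mean signal under 78.6) were left out, which left 18625. Probe sets were named by the platform annotation (20826 with 1 symbol, 436 with several, 9780 with none), and gene identifiers changed 0 symbols. Columns of no sample numbered 0.

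The values log2(signal + 16), which understate changes of dim probe sets, were tested across all 18625 probe sets with limma 3.58.1 in R 4.3.3 (lmFit, eBayes with intensity trend), two-sided, with Benjamini-Hochberg adjustment and a threshold of 0.05. The script was tested on simulated data. Replicates are cultures as labelled. Differences between numbers and between lists are descriptions without a test. Members, lists and motifs were chosen with earlier results of these data known. All members were named, with their brightest probe set, and at most 6 other pathway genes with the largest differences. Alternatives were constants of 1 and 64, no filter and a 60% filter, quantile and cyclic loess scaling, the mean over probe sets, no intensity trend, a replicate block and leaving out each array. Levels of other cell type markers are the brightest probe set of each gene.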

Additional observations from a re-analysis of the deposited data

How the results depend on the processing

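The median siRNA differences of the sterol enzymes, the fatty acid genes and the regulators kept their sign under all alternatives, from -0.78 to -0.22, -0.76 to -0.11 and -0.63 to -0.12, with the lowest and highest values from leaving out an array. Quantile and cyclic loess scaling moved the sterol median to -0.47 and -0.51. After these scalings 10 and 11 of 18 sterol enzymes had separate and lower Runx2 siRNA arrays, against 21.2% and 23.2% of probe sets (18.5% in the main setting). Control array 1 was highest and Runx2 siRNA array 2 lowest in 31 of 33 members under both, against 17.6% and 18.6%. No probe set passed under any alternative except the replicate block, by which 1512 of 18625 did (610 higher, 902 lower, which is 4.84% of all), 19 of the 33 members among them, all lower. Whether a number stands for a shared culture is not given in the labels, so the arrays are known to share only a number. The correlation of the deviations of arrays with the same number was 0.548 over 18625 probe sets, which are not independent. Of the 297 differences of single members under alternatives other than leaving out an array, 276 kept their sign and any call. The mean over probe sets gave a sign only, without a call. A further 19 passed under the block, and 2 changed sign, both for Idi1 (-0.10 after quantile scaling and -0.27 as the mean over its probe sets). Leaving out an array changed the sign of 8 of 132. The ranges were -0.035 to 0.25 for Idi1, -0.50 to 0.084 for Fdft1, -0.37 to 0.10 for Srebf2, -0.76 to 0.11 for Elovl6 and -0.68 to 0.10 for Fads2. Counts of genes with separate and lower Runx2 siRNA arrays, checked after the data were seen, ran from 11 to 17 of 18 sterol enzymes, 3 to 8 of 9 fatty acid genes and 15 to 31 of 33 members when an array was left out. The higher values came without Runx2 siRNA array 1 or control array 2 (34.9% and 29.5% of all probe sets) and the lower ones, equal to those with all arrays, without Runx2 siRNA array 2 or control array 1 (30.6% and 27.7%). For members these counts follow from the order given above, control array 1 highest and Runx2 siRNA array 2 lowest in 31 of 33. Genes in that order are separate whenever Runx2 siRNA array 1 or control array 2 is left out. Without Runx2 siRNA array 2 or control array 1 they are separate only if Runx2 siRNA array 1 lies below control array 2. That is also the condition with all arrays, so these counts are not a separate check. The cause of the order was not tested. With 2 arrays per group, precision is limited by their number.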
